A study of Mus musculus with 12 samples.

Results

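The 10 genes described here encode transcription factors of the AP-1 family and its BATF and ATF3 relatives: Fos, Fosb, Fosl1 and Fosl2, Jun, Junb and Jund, and Batf, Batf3 and Atf3. They were chosen by symbol, and all 10 had a row in the deposited table of 11022 genes, so that none was lost to the authors' filter on low counts. Messenger RNA was sequenced in cultured mouse cytotoxic T lymphocytes (CTL) with the transgenic P14 T cell receptor (TCR), which binds the gp33-41 peptide of LCMV. All 12 cultures had been expanded in interleukin 2 (20 ng/mL), and they fell into 4 groups of 3: unstimulated cells, cells given 100 ng/mL peptide for 4 h (TCR), and cells given the peptide together with 10 µM IC87114, an inhibitor of PI3K p110δ (PI3Kδi), or with 2 µM PD184252, an inhibitor of MEK1/2 (MEKi). All groups, the unstimulated one included, carried this transgenic receptor, and the 3 cultures of a group came from lymph nodes or spleens of 3 mice. Whether cultures with equal numbers came from 1 mouse is not stated, and p-values measure the spread between these cultures.

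AP-1 is a dimer of basic leucine zipper (bZIP) proteins. FOS proteins do not form stable dimers with themselves and pair with JUN proteins, whereas JUN proteins can also pair with each other. BATF proteins pair with JUN proteins and are joined on DNA by IRF4 or IRF8. In T cells AP-1 binds with NFAT at cytokine genes after the TCR is engaged, and the kinase cascade from MEK1/2 to ERK1/2 is a known route from the receptor to transcription of Fos.

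Levels are FPKM, which are fragments normalised to exon length and to library size after the authors' TMM scaling, and can be compared between genes because they are per length. The sum of FPKM ran from 470420 to 666922 per sample, and the spacing of low values put the effective depth at about 7850000 to 13150000 reads. Replicates of a group correlated across genes at 0.992 to 0.995, genes not being independent replicates. The labelled cell type was checked by its markers: 7 of 8 genes of cytotoxic CD8 T cells were in the table, with summed levels of 10972 to 18547 FPKM, and 0 of 5 B cell and 0 of 3 erythroid markers were in it. Cd68, at 4.88 to 8.44 FPKM, was the 1 of 6 myeloid markers present, and Klrb1c, at 1.31 to 6.23 FPKM, was the 1 of 2 NK cell markers present. Because these are bulk samples, fewer cells expressing a gene and less RNA per cell cannot be told apart.

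RefSeq promoter windows on GRCm38.p6 were available for 9 of the 10 genes, all except Fosl1. Each was searched on both strands over the 250 bases before the transcription start. The motifs were the AP-1 site TGANTCA, the full cyclic AMP response element (CRE) TGACGTCA, its core TGACG, which is also contained in the full element, the CArG box bound by serum response factor, and TGACATCA, a variant of the AP-1 site known from the Jun promoter and added after the sequences had been read. The CRE core was in 5 of the 9 windows, those of Fos, Fosb, Junb, Batf and Atf3, and in 17.8% of all 32851 promoter windows. TGACATCA was in 1 of the 9, that of Jun, and in 2.93% of all windows. The AP-1 site, the full CRE and the CArG box were in 0 of the 9 windows, against 6.75%, 1.55% and 1.47% of all windows, and these lengths do not reach sites further upstream such as the Fos serum response element.

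The last 150 bases before the start are printed for Fos and Fosb, whose transcripts both rose with TCR stimulation and were lower with MEKi. Those of Jun, Junb and Atf3 follow for comparison. CRE cores, and the TGACATCA of Jun, are in capitals. The windows are chr12:85473740-85473889 on the plus strand for Fos, chr7:19310046-19310195 on the minus strand for Fosb, chr4:95052223-95052372 (minus) for Jun, chr8:84978749-84978898 (minus) for Junb and chr1:191183334-191183483 (minus) for Atf3, each read 5′ to 3′ along the gene.
Fos: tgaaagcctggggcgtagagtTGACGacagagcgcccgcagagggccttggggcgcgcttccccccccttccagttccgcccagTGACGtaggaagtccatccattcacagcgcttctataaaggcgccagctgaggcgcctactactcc
Fosb: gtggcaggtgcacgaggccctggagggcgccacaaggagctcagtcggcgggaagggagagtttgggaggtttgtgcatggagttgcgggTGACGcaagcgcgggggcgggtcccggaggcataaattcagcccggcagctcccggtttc
Jun: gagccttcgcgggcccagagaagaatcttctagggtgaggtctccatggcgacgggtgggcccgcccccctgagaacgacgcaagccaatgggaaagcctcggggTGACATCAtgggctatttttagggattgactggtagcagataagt
Junb: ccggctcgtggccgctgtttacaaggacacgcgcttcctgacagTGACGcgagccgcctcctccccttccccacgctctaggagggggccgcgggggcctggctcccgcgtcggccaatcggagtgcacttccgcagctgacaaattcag
Atf3: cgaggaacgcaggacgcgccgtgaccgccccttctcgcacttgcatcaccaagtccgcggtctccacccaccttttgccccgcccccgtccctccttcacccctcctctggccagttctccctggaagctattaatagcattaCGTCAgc
The core nearest to the start began 66 bases before it in Fos and 60 bases before it in Fosb, and 106 bases before it in Junb. In Atf3 it lay on the opposite strand and began 7 bases before the start, and the TGACATCA of Jun began 45 bases before its start. A match is a description of these letters and not evidence of binding. RefSeq and GENCODE place some starts differently. The printed Atf3 window lies inside the GENCODE span of the gene (191170296 to 191218039 on the minus strand), far from the start of its longest extent. The windows of Fosl2, Batf and Batf3 also reach into their GENCODE spans. That of Fosb reaches just into its span, which ends at 19310051. That of Jund, chr8:70697489-70697738, instead ends upstream of the GENCODE start at 70698949.

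In unstimulated cells the most abundant of the transcripts were Jund and Junb, and Fos and Fosb were close to the limit of detection. Mean levels per length ran from 148 FPKM for Jund through 99.2 for Junb, 46.6 for Batf, 36.9 for Jun, 25.6 for Fosl2, 20.7 for Batf3, 7.87 for Fosl1, 1.92 for Atf3 and 0.493 for Fos to 0.127 for Fosb. No neighbours in this order overlapped in their 3 cultures. After TCR stimulation Junb led with 227 FPKM, ahead of Jund with 139, and Atf3 had moved up to 54.8 FPKM. Jun and Batf3 overlapped there, at 62.34 to 68.15 and 56.60 to 68.81 FPKM, and so could not be ordered.

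**Figure D1:**
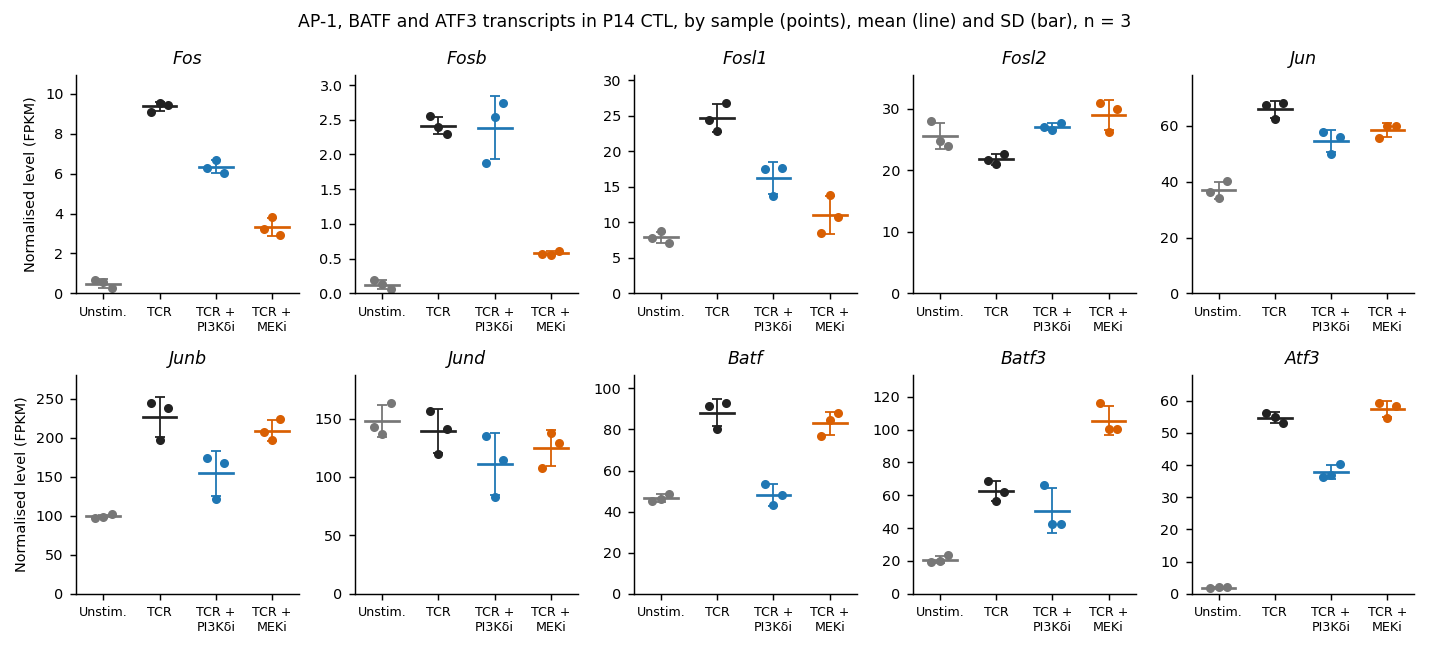
Level of each transcript in FPKM (vertical axes, linear from 0, 1 scale per gene) in the 4 groups (horizontal axes). Points are the 3 cultures, lines the mean and bars the SD: the means of Fos, Fosb and Fosl1 were lowest among stimulated groups with MEKi, that of Batf was lowest among them with PI3Kδi, and that of Batf3 was highest with MEKi.

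The first comparison asked how expression of these factors responds to antigen. TCR stimulation raised 6 of the 10 transcripts, Fos, Fosb, Fosl1, Junb, Batf3 and Atf3, and lowered 0. A gene was called at an adjusted p under 0.05 in limma together with more than a 2-fold change, which 8.87% of all 11022 genes met upwards and 11.1% downwards. At an adjusted p under 0.05 alone, 9 of the 10 passed, against 68.6% of all genes, and so did 9 at an unadjusted p under 0.05, against 71.2%. The median log2 fold change was 1.39 over the 10 genes and -0.01 over all genes. Markers of other cells moved in this comparison too: Klrb1c was at 4.58 to 6.23 FPKM unstimulated and 1.63 to 1.88 FPKM stimulated, and Cd4 at 0.44 to 0.99 and 2.54 to 2.87 FPKM. The summed CD8 T cell markers went from 10972 to 12093 FPKM unstimulated to 17185 to 18547 FPKM stimulated. Most of this sum was Gzmb, with means of 8740 and 13000 FPKM. Of the 7 markers, 5 were higher and 2 lower at an adjusted p under 0.05, against 33.6% and 34.9% of all genes. The lower ones were Cd3e (125 to 111 FPKM) and Cd3g (324 to 258 FPKM). The part of these shifts in the results was not tested.

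Among the Fos genes, Fos (Entrez gene 14281, chromosome 12, 85473890 to 85477273 on GRCm38) encodes the classical immediate early partner of JUN. Its levels were 0.68, 0.55 and 0.25 FPKM in the unstimulated cultures and 9.10, 9.53 and 9.45 FPKM after TCR stimulation. All stimulated cultures lay far above all unstimulated ones, which held only about 7 to 16 reads each. Mean Fos was 19.0-fold higher, and the log2 fold change was 4.07 (SE 0.22, adjusted p = 3.29e-10) after adding 0.1 FPKM, an addition that shrinks the change of low genes.

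Fosb (Entrez gene 14282, chromosome 7, 19302696 to 19310051), a close relative of Fos that also carries a transactivation domain, was the least abundant of the 10 in every group. Its levels were 0.19, 0.13 and 0.06 FPKM unstimulated, or about 3 to 8 reads per culture, and 2.55, 2.40 and 2.30 FPKM after stimulation. The groups did not overlap and the means differed 19.1-fold (log2 fold change 3.51, SE 0.21, adjusted p = 1.24e-09). The size of this ratio rests on a handful of reads in unstimulated cells.

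Fosl1 (Entrez gene 14283, chromosome 19, 5447547 to 5455946) encodes FRA-1, a Fos relative without the transactivation domain of FOS. It was at 7.83, 8.72 and 7.07 FPKM unstimulated and at 24.47, 22.87 and 26.79 FPKM after stimulation, with no overlap and a log2 fold change of 1.64 (SE 0.15, adjusted p = 1.17e-07). Its exons overlap those of Ccdc85b on the other strand over 1163 bases, and the strand setting of the counting is not given. Ccdc85b itself went the other way, from 5.1 to 1.8 FPKM (log2 fold change -1.49, adjusted p = 2.50e-05). Fosl2 (Entrez gene 14284, chromosome 5, 32135801 to 32157842), which encodes the related FRA-2, was at 27.93, 24.80 and 23.96 FPKM unstimulated and 21.66, 20.95 and 22.59 FPKM stimulated. Every stimulated culture was below every unstimulated one, yet the log2 fold change of -0.23 (SE 0.07, adjusted p = 0.011) was far under 2-fold and became -0.17 (adjusted p = 0.0681) without unstimulated replicate 1.

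Of the Jun genes, Junb passed both thresholds, Jun passed only the first and Jund neither. Junb (Entrez gene 16477, chromosome 8, 84974484 to 84978718), an early response gene whose protein pairs with FOS and BATF proteins, was at 97.22, 98.47 and 101.87 FPKM unstimulated and 244.36, 197.77 and 238.30 FPKM after stimulation. The stimulated cultures were all higher, by a log2 fold change of 1.19 (SE 0.11, adjusted p = 2.31e-07). This call lay near the 2-fold threshold: the value was 0.77 with every sample rescaled to a common FPKM sum and 0.98 after quantile normalisation. The rescaling to a common sum moved the median of all genes by -0.40 in this comparison.

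Jun (Entrez gene 16476, chromosome 4, 95049034 to 95052222) encodes the JUN protein itself. It was at 36.35, 34.28 and 40.17 FPKM unstimulated and 67.31, 62.34 and 68.15 FPKM after stimulation, so that the groups lay apart at a log2 fold change of 0.84 (SE 0.07, adjusted p = 5.67e-08). Jund (Entrez gene 16478, chromosome 8, 70698949 to 70700616), the family member known for steady expression in resting cells, was at 142.97, 136.67 and 162.97 FPKM unstimulated and 156.76, 119.51 and 140.98 FPKM stimulated. These ranges overlapped, and the interval of its log2 fold change ran from -0.41 to 0.23 (adjusted p = 0.603). On the common FPKM sum, where the median of all genes was lower too, Jund was at -0.50 (adjusted p = 0.00169). Overlaps on the other strand cover 877 bases of Jund (with Gm11175), 232 of Jun (with Junos) and 173 of Junb (with Prdx2), and counting of such reads depends on the strand setting.

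Atf3 (Entrez gene 11910, chromosome 1, 191170296 to 191218039), a stress-responsive factor that pairs with JUN proteins, had the largest fold change of the 10. It was at 1.80, 1.94 and 2.02 FPKM unstimulated and 56.28, 54.91 and 53.15 FPKM after stimulation. The means differed 28.5-fold with little spread in either group (log2 fold change 4.76, SE 0.07, adjusted p = 6.26e-17), and its value was at or above that of 99.3% of all genes.

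Batf3 (Entrez gene 381319, chromosome 1, 191097847 to 191108945) and Batf (Entrez gene 53314, chromosome 12, 85686669 to 85709087) encode bZIP proteins that lack a transactivation domain and pair with JUN proteins. Batf3 was at 19.01, 19.80 and 23.38 FPKM unstimulated and 68.81, 56.60 and 62.01 FPKM after stimulation, a log2 fold change of 1.59 (SE 0.14, adjusted p = 1.19e-07). Batf was at 45.01, 46.05 and 48.73 FPKM unstimulated and 91.38, 80.46 and 92.72 FPKM stimulated. For both genes all stimulated cultures were higher, and the Batf change of 0.92 (SE 0.08, adjusted p = 9.45e-08) stopped short of 2-fold.

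The make-up of each family shifted with stimulation. Shares were taken of the summed FPKM of a family within a sample, so they do not depend on how samples were scaled to each other, and they are given as a description without a test. The summed level of the 4 Fos genes was 34.1 ± 2.65 FPKM (SD, n = 3) unstimulated and 58.2 ± 2.72 FPKM after TCR stimulation. Fosl2 made up 75.1% ± 2.22 of it unstimulated and 37.3% ± 0.337 after stimulation, when Fosl1 held the largest share at 42.4% ± 1.40. Fos went from 1.42% ± 0.554 to 16.1% ± 0.872.

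With PI3Kδi, Fosl2 again held the largest share of the Fos genes, 52.0% ± 1.44, and with MEKi it held 66.1% ± 6.36. The share of Fos was 12.2% ± 1.21 with PI3Kδi and 7.57% ± 1.01 with MEKi, and that of Fosb 4.59% ± 0.886 and 1.31% ± 0.0724. With MEKi the composition thus lay nearest to that of unstimulated cells, although the shares of Fos did not overlap between those groups. The summed level of the family was 52.1 ± 2.33 FPKM with PI3Kδi and 43.9 ± 0.624 FPKM with MEKi.

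Among the Jun genes, Jund held 52.0% ± 1.37 of the summed FPKM unstimulated and Junb 35.0% ± 1.58. After TCR stimulation the order was inverted, with Junb at 52.5% ± 0.652 and Jund at 32.2% ± 1.14. Junb also held the largest share with PI3Kδi, 48.2% ± 1.13, and with MEKi, 53.3% ± 3.09. In each of the 9 stimulated cultures Junb exceeded Jund, by a ratio of 1.29 to 1.92, against a ratio of 0.625 to 0.720 in the unstimulated cultures.

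**Figure D2:**
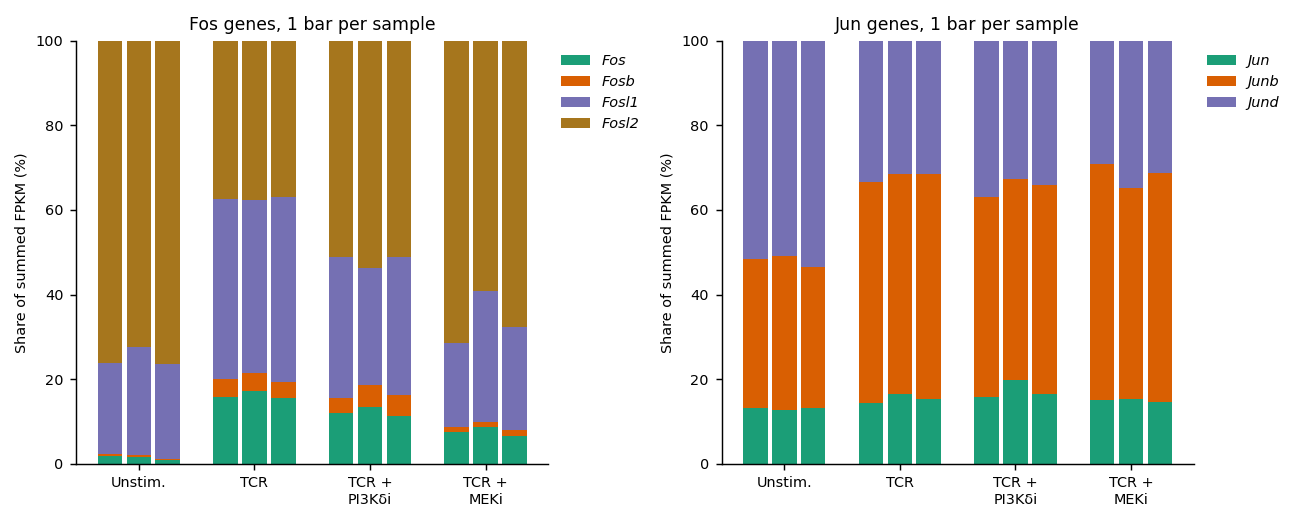
Share of each gene in the summed FPKM of the 4 Fos genes (left) and the 3 Jun genes (right), in percent, with 1 bar per culture in the order of replicates 1 to 3. Fosl2 takes most of the bar in unstimulated (72.5% to 76.5%), MEKi (59.1% to 71.5%) and, narrowly, PI3Kδi cultures (51.1% to 53.7%). Junb exceeds Jund in all stimulated cultures.

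The second comparison asked which of the transcripts depend on PI3K p110δ during stimulation. With PI3Kδi, 0 of the 10 passed both thresholds in limma, against 1.88% of all genes in either direction and 1.38% of all genes downwards. The changes were moderate and mostly downwards: 5 genes were lower at an adjusted p under 0.05 (12.8% of all genes), namely Batf, Fosl1, Junb, Atf3 and Jun, and Fosl2 was higher (12.7% of all genes). In either direction these were 6 of 10 against 25.6% of all genes. At an unadjusted p under 0.05 the number was 9, all but Fosb, against 37.7% of all genes. The median log2 fold change was -0.44 over the 10 genes against 0.02 over all genes. Of the 7 CD8 T cell markers, 4 were lower and 1 was higher with PI3Kδi at an adjusted p under 0.05. Over all genes these shares were 12.8% and 12.7%. The summed markers were at 16046 to 16943 FPKM with PI3Kδi and at 17185 to 18547 FPKM in TCR cultures. The part of these shifts in the PI3Kδi results was not tested.

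Batf showed the largest difference. It was at 91.38, 80.46 and 92.72 FPKM with peptide alone and at 53.42, 42.99 and 48.00 FPKM with PI3Kδi, where unstimulated cultures had held 45.01 to 48.73 FPKM. All PI3Kδi cultures lay below all TCR cultures, by a log2 fold change of -0.87 (95% interval -1.05 to -0.70, adjusted p = 3.94e-06). Against unstimulated cells the difference was 0.04 (interval -0.13 to 0.21, adjusted p = 0.665), and it turned to -0.19 (adjusted p = 0.0238) with samples rescaled to a common FPKM sum and to -0.04 without PI3Kδi replicate 1.

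Atf3 was at 36.13, 37.04 and 40.45 FPKM with PI3Kδi, below every TCR culture and far above every unstimulated one. Its log2 fold change against TCR was -0.53 (SE 0.07, adjusted p = 5.07e-05). Fosl1 was at 17.48, 13.68 and 17.65 FPKM with PI3Kδi, also without overlap with TCR (-0.61, SE 0.15, adjusted p = 0.00711). These differences were clear of the replicate spread but under 2-fold.

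Junb was at 173.94, 121.47 and 167.66 FPKM with PI3Kδi, lower than in every TCR culture by -0.57 on the log2 scale (SE 0.11, adjusted p = 0.00201). Jun was at 57.66, 50.08 and 56.01 FPKM with PI3Kδi, a difference of -0.27 (SE 0.07, adjusted p = 0.0101). For Jun this became -0.09 (adjusted p = 0.242) on the common FPKM sum and -0.21 (adjusted p = 0.052) without PI3Kδi replicate 2. Replicate 2 held the lowest Jun, Junb, Jund and Batf of both the TCR and the PI3Kδi cultures, and the fit with replicate number as a block kept these genes on their side of an adjusted p of 0.05. Fosl2 went in the other direction, at 27.05, 26.59 and 27.62 FPKM, above every TCR culture (0.32, SE 0.07, adjusted p = 0.00532).

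For the other 4 genes an adjusted p under 0.05 was not reached. Fos was at 6.30, 6.70 and 6.03 FPKM with PI3Kδi, below every TCR culture, with a log2 fold change of -0.56 (interval -1.02 to -0.09, adjusted p = 0.0731). With replicate number as a block the Fos adjusted p was 0.0427, so that 6 rather than 5 genes were lower at that threshold. With the compared groups alone it was 0.00225. It was also under 0.05 with a pseudocount of 1 (0.00392), after quantile normalisation (0.0435), and without unstimulated replicate 1 (0.0388) or 3 (0.00409). The Fos value stayed above 0.05 on the common FPKM sum (0.195), with a pseudocount of 0.01 (0.125) and without a trend (0.109). It was 0.117 to 0.168 when any 1 TCR or PI3Kδi culture was left out. Fosb was at 1.88, 2.54 and 2.74 FPKM and overlapped with TCR, and its interval of -0.48 to 0.42 (adjusted p = 0.924) included no change. Jund was at 135.11, 82.89 and 114.88 FPKM (-0.35, adjusted p = 0.101) and Batf3 at 66.42, 42.54 and 42.50 FPKM (-0.34, adjusted p = 0.0971), with wide spread in both cases. PI3Kδi replicate 1 was the highest PI3Kδi culture for both genes. Without it Jund was at -0.50 (adjusted p = 0.0186) and Batf3 at -0.55 (adjusted p = 0.00128). Without PI3Kδi replicate 2, the lowest PI3Kδi culture for Jund, Jund was at -0.15 (adjusted p = 0.436). On the common FPKM sum Jund was at -0.16 (adjusted p = 0.304).

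The third comparison asked which of the transcripts depend on MEK1/2. MEKi lowered 3 of the 10, Fosb, Fos and Fosl1, where 2.51% of all genes were called lower. Fosl2 and Batf3 were higher at an adjusted p under 0.05 but under 2-fold, as were 18.9% of all genes at that p. In either direction 5 of 10 passed that p, against 37.1% of all genes. The other 5, Jun, Junb, Jund, Batf and Atf3, did not. The median log2 fold change was -0.13 over the 10 genes and 0.01 over all genes.

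Fosb was at 0.57, 0.55 and 0.61 FPKM with MEKi, against 2.30 to 2.55 FPKM with peptide alone, so that the mean was lower by a factor of 4.19 (log2 fold change of -1.89 with an SE of 0.21, adjusted p = 8.55e-06). Fos was at 3.21, 3.84 and 2.93 FPKM with MEKi against 9.10 to 9.53 FPKM (-1.47, SE 0.22, adjusted p = 1.16e-04). Both stayed above every unstimulated culture. Fosl1 was at 8.55, 13.79 and 10.71 FPKM with MEKi, below every TCR culture (-1.18, SE 0.15, adjusted p = 2.43e-05), and its MEKi range overlapped with that of unstimulated cells. With samples rescaled to a common FPKM sum, which moved the median of all genes by 0.25, the Fosl1 value was -0.92 and under 2-fold.

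Batf3 stood on the other side of its TCR level. It was at 115.97, 100.40 and 100.17 FPKM against 68.81, 56.60 and 62.01 FPKM with peptide alone. All MEKi cultures exceeded all TCR cultures, by a log2 fold change of 0.76 (interval 0.45 to 1.06, adjusted p = 8.26e-04), which became 1.02 and passed the 2-fold threshold on the common sum. Fosl2 was at 30.89, 26.24 and 29.87 FPKM with MEKi, also above all TCR cultures (0.41, SE 0.07, adjusted p = 5.15e-04).

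Atf3 was at 59.18, 54.48 and 58.35 FPKM with MEKi, within reach of the TCR cultures, and the interval of the difference was narrow, -0.07 to 0.20 (adjusted p = 0.463), although on the common FPKM sum Atf3 was at 0.33 (adjusted p = 0.00178). Batf was at 76.74, 84.51 and 87.85 FPKM with MEKi, Junb at 207.00, 197.04 and 223.96 FPKM and Jund at 107.79, 137.81 and 129.08 FPKM, and all 3 overlapped with their TCR cultures. The intervals of the differences were -0.26 to 0.08 for Batf, -0.35 to 0.13 for Junb, -0.47 to 0.16 for Jund and -0.32 to -0.02 for Jun. Jun was at 55.64, 59.95 and 59.83 FPKM with MEKi, below every TCR culture, at an adjusted p of 0.0658, which was 0.0374 with replicate number as a block. The sign of these 4 small differences turned on the common FPKM sum, where Jun was at 0.09, Junb at 0.15, Jund at 0.11 and Batf at 0.18.

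Cd4, the defining marker of CD4 T cells, moved with MEKi as well, from 2.54 to 2.87 FPKM in TCR cultures to 0.28 to 0.66 FPKM (log2 fold change -2.40, adjusted p = 2.31e-05). It was at 0.44 to 0.99 FPKM in unstimulated and 1.96 to 3.65 FPKM in PI3Kδi cultures. Its part in the results for Fos, Fosb and Fosl1 was not tested. The summed CD8 T cell markers were at 17185 to 18547 FPKM in TCR cultures and at 16061 to 16096 FPKM with MEKi. Of these 7 markers, 1 was higher and 2 were lower with MEKi at an adjusted p under 0.05, against 18.9% and 18.2% of all genes.

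**Figure D3:**
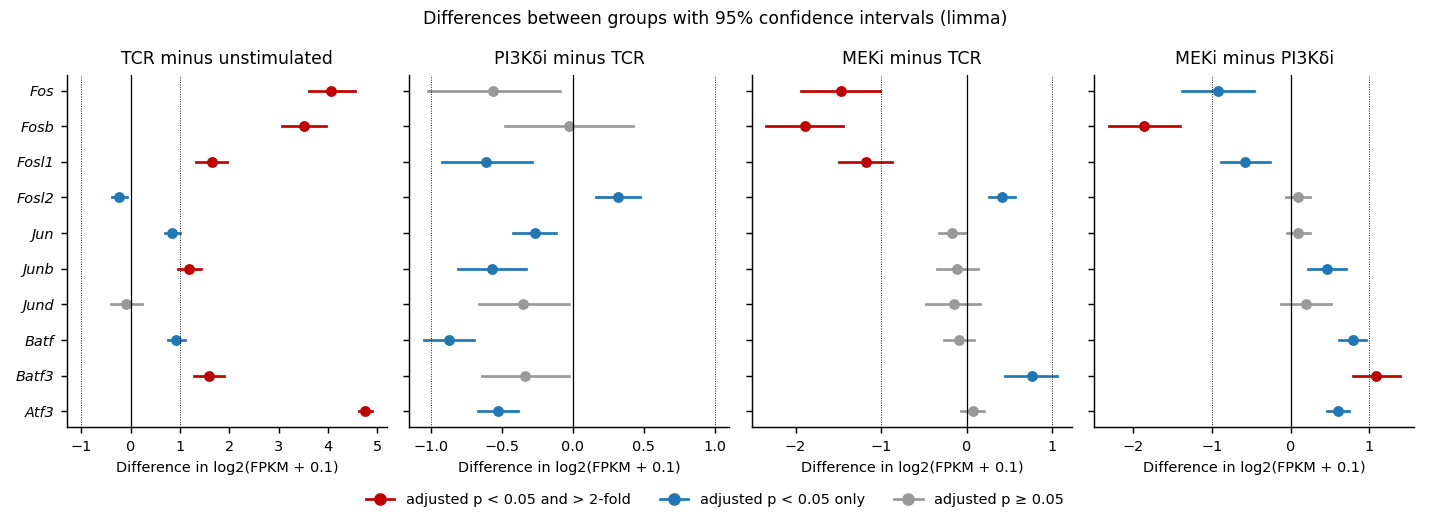
Difference in mean log2(FPKM + 0.1) of each transcript (horizontal axes, each panel with its own range) with its 95% confidence interval, for TCR against unstimulated, each inhibitor against TCR, and MEKi against PI3Kδi. Dotted lines mark 2-fold: Fos, Fosb and Fosl1 lie left of it with MEKi (-1.47, -1.89 and -1.18), and no gene passes it with PI3Kδi.

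Both inhibitor groups were taken against the same TCR cultures, so their difference was tested directly as MEKi against PI3Kδi. Of the 10 transcripts, 2 passed both thresholds, against 3.09% of all genes: Fosb was lower with MEKi and Batf3 higher. At an adjusted p under 0.05 alone, 7 passed, against 28.9% of all genes. Of these, Fos (-0.92, adjusted p = 0.00515) and Fosl1 (-0.58, adjusted p = 0.00812) were also lower with MEKi, whereas Batf (0.79, adjusted p = 4.47e-06), Atf3 (0.60, adjusted p = 8.82e-06) and Junb (0.46, adjusted p = 0.00691) were higher with MEKi. Fosl1 overlapped between these groups, since MEKi replicate 2 (13.79 FPKM) exceeded PI3Kδi replicate 2 (13.68 FPKM), and it was lower in the other 2 same-numbered pairs.

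Fosb differed by -1.86 on the log2 scale (SE 0.21, adjusted p = 1.23e-05), the lowest PI3Kδi culture, 1.88 FPKM, being above the highest MEKi culture, 0.61 FPKM. Batf3 differed by 1.09 (SE 0.14, adjusted p = 4.32e-05), with 100.17 FPKM in the lowest MEKi and 66.42 FPKM in the highest PI3Kδi culture. Without PI3Kδi replicate 2 or without PI3Kδi replicate 3 the Batf3 difference was 0.98, just under 2-fold, and without MEKi replicate 2 the Fos difference was -1.02 and passed it. The intervals were -0.06 to 0.25 for Fosl2, -0.05 to 0.25 for Jun and -0.12 to 0.51 for Jund, and each of these 3 included no difference.

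Against unstimulated cells, PI3Kδi cultures had 5 of the 10 transcripts called higher, Fos, Fosb, Fosl1, Batf3 and Atf3 (7.16% of all genes), and 0 lower. MEKi cultures had Fos, Fosb, Junb, Batf3 and Atf3 called higher (6.95% of all genes) and 0 lower. At an adjusted p under 0.05 alone, 8 passed with PI3Kδi and 9 with MEKi, against 62.5% and 59.6% of all genes. Jund was below unstimulated with PI3Kδi at -0.44 (adjusted p = 0.0189), which became -0.24 (adjusted p = 0.108) without PI3Kδi replicate 2 and -0.36 (adjusted p = 0.076) without unstimulated replicate 3. The PI3Kδi call of Fosl1, at 1.03, was at the threshold: it was between 0.96 and 0.98 without unstimulated replicate 3, without PI3Kδi replicate 1 or without PI3Kδi replicate 3. With MEKi, Fosl1 was at 0.46 (adjusted p = 0.014) and overlapped with unstimulated cells. Without MEKi replicate 2 this was 0.28 (adjusted p = 0.0842), and without unstimulated replicate 3 it was 0.38 (adjusted p = 0.0604).

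For the 6 transcripts called higher with peptide alone, the part of the rise that remained was computed from mean FPKM, as a description. With PI3Kδi it was 98.7% for Fosb, 71.3% for Batf3, 68% for Atf3, 66% for Fos, 49.9% for Fosl1 and 43.2% for Junb. With MEKi it was 18.7% for Fosl1, 19.7% for Fosb, 32% for Fos, 86.3% for Junb, 105% for Atf3 and 203% for Batf3. With MEKi the 3 Fos genes thus kept the smallest parts of their rise, while the mean of Batf3 stood above its TCR level. Batf and Jun rose by less than 2-fold and were left out. Mean Batf was 46.6 FPKM unstimulated, 88.2 with TCR, 48.1 with PI3Kδi and 83 with MEKi. Mean Jun was 36.9, 65.9, 54.6 and 58.5 FPKM in the same order.

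Other bZIP genes of the same superfamily were taken as a list of 43, of which 31 were in the table. TCR stimulation raised 7 and lowered 4, where 8.87% of all genes were called higher and 11.1% lower. The list median was 0.42 against -0.01 over all genes. Cebpd (2.13), Creb3l2 (1.99) and Ddit3 (1.84), a stress-induced C/EBP relative, rose most on the log2 scale, and Creb3l1 fell by 1.91. Cebpd (0.197 to 1.2 FPKM) and Creb3l1 (1.05 to 0.207 FPKM) were at low levels, so the size of their changes is uncertain. With PI3Kδi 0 of the 31 were called in limma (16 at an unadjusted p under 0.05, which 37.7% of all genes met). With MEKi Maff, a small MAF protein without a transactivation domain, was called lower, from 6.93 ± 0.237 to 2.74 ± 0.217 FPKM (-1.31, adjusted p = 1.43e-07). Between the inhibitors, Atf5 (1.07) and Jdp2 (1.03), the latter a JUN dimerisation partner, were higher with MEKi. Jdp2 fell after TCR stimulation from 25.2 ± 1.60 to 7.42 ± 1.30 FPKM and was at 12 ± 0.257 FPKM with MEKi.

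Of 33 genes of the MAP kinase cascades and the serum response factor module upstream of AP-1, 29 were in the table. TCR stimulation raised 3, Map2k3 (2.05), Map3k8 (1.78) and Mapk11 (1.40), where 8.87% of all genes were called higher. It lowered 3, among them Rps6ka5 (-1.56), where 11.1% of all genes were called lower. Both counts lie near the shares over all genes, and the list median was -0.11. With PI3Kδi 0 were called in limma (15 at an unadjusted p under 0.05, which 37.7% of all genes met). With MEKi Mapk11, which encodes p38β, was called lower (-1.19, adjusted p = 1.69e-06). All 5 partner factors were in the table. Irf4 (4.24) and Irf8 (2.27), the IRF partners of BATF, rose with TCR stimulation and Nfatc2 fell from 30.6 ± 0.925 to 10.8 ± 1.38 FPKM. With either inhibitor 0 of the 5 were called in limma, with 3 at an unadjusted p under 0.05 for PI3Kδi and 4 for MEKi, where 37.7% and 46.4% of all genes met it.

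Of 12 textbook AP-1 targets in T cells, 9 were in the table. TCR stimulation raised 8, where 8.87% of all genes were called higher, with a median log2 fold change of 7.06 against -0.01 over all genes. PI3Kδi lowered 6 (median -2.17 against 0.02) and MEKi lowered the same 6 (median -1.70 against 0.01). Over all genes 1.38% and 2.51% were called lower. The study had already listed these 6, from the same cultures, as reduced by either inhibitor. The list was chosen with earlier results of these data known, so its counts and medians are no independent evidence. For the cytokine genes with the largest changes, the log2 fold changes with PI3Kδi and with MEKi were -3.05 and -3.85 for Il2, -2.67 and -3.24 for Csf2, -2.61 and -3.05 for Tnf, and -2.41 and -2.28 for Il13. Between the inhibitors 0 of the 9 were called in limma (6 at an unadjusted p under 0.05, against 40.5% of all genes).

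**Figure D4:**
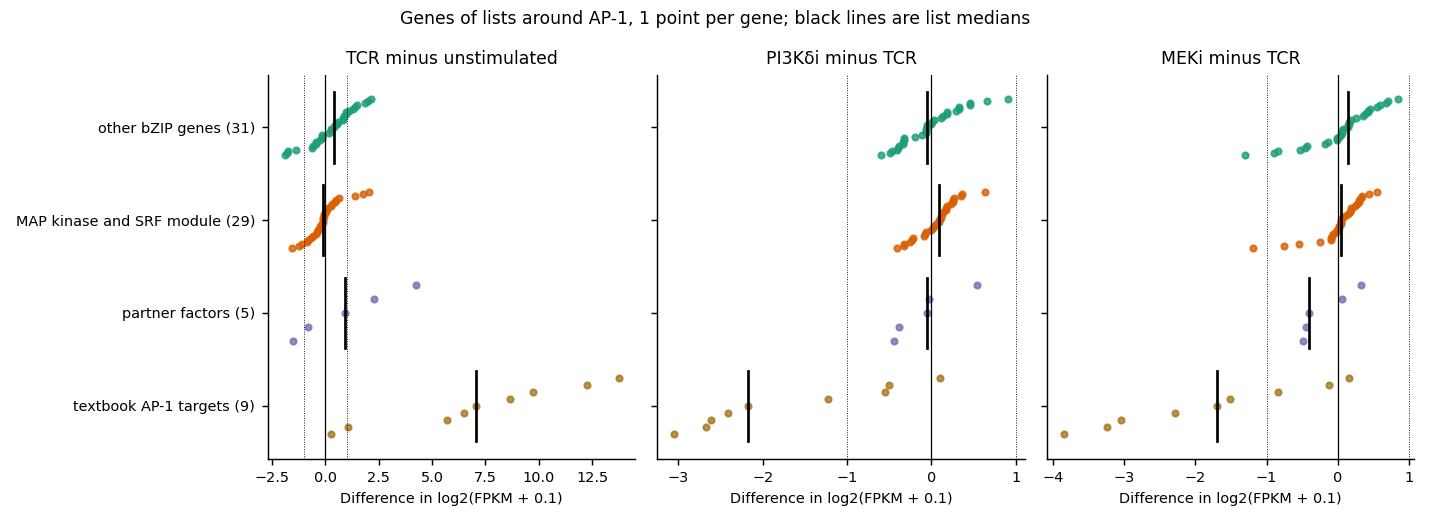
Difference in log2(FPKM + 0.1) of every gene in the table from 4 lists around AP-1 (number of genes in parentheses), for TCR against unstimulated, PI3Kδi against TCR and MEKi against TCR, with the list median as a black line and dotted lines at 2-fold. The AP-1 targets lie to the right after TCR stimulation (median 7.06) and to the left with each inhibitor (-2.17 and -1.70), while the medians of the other lists lie between -0.40 and 0.93.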

How the data were processed

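The deposited table held FPKM for 11022 genes in 12 samples. Per the submitters' processing notes and the study's methods, the authors aligned reads to mm10 with STAR 2.4.2a, counted them per RefSeq gene with Subread 1.5.0, dropped genes with low counts (filterByExpr), scaled by TMM and computed FPKM with edgeR from summed non-overlapping exon length. Replicates were not pooled, and the strand setting of counting is not given in the sources used here. Each value column was matched to 1 sample through its header, leaving 0 unmatched.

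Group means of log2(FPKM + 0.1) were modelled for all genes and samples together with limma 3.58.1 in R 4.3.3 (eBayes with trend), with Benjamini-Hochberg adjustment over all 11022 genes. A gene was called at an adjusted p under 0.05 and more than 2-fold. The study fitted limma-voom to counts, which were not used here. The 10 genes, the gene lists and the tests were chosen with earlier results of these data known. Other genes are named only where a list fixed with the tests held them, at most 4 per list and comparison by size of change. Beyond these, genes are named where an overlap or marker touched a result (Ccdc85b, Gm11175, Junos, Prdx2, Cd4, Cd68, Klrb1c, Gzmb, Cd3e, Cd3g). The closing section also names genes picked from these data as close matches by correlation. The model was tested on simulated data.

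Depth is not in the table. It was estimated as the scaling that best put low FPKM, multiplied by GENCODE M21 exon length, at whole reads: between 61.8% and 73.5% of 88 to 215 low values per sample lay within 0.15 of one, where evenly spread values would give 30%, so read numbers are approximate and cover counting error only. Positions are from GENCODE M21 (GRCm38, which is mm10). None of the 100-base stretches in transcripts of the 10 genes occurred in another gene (0%). Promoters are RefSeq windows on GRCm38.p6.

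After group means had been subtracted, cultures with equal numbers correlated at 0.24 to 0.45 for PI3Kδi and TCR, 0.12 to 0.18 for MEKi and TCR, 0.14 to 0.15 for MEKi and PI3Kδi and 0.12 to 0.15 for MEKi and unstimulated, each over 0.1 for all 3 numbers. The number was therefore taken to pair these samples, on the data alone, through the replicate block among the alternatives. The main fit had no term for the number, so its p-values and intervals leave this pairing out. Alternatives were a pseudocount of 1 or 0.01, only genes with a mean of at least 1 FPKM, samples rescaled to equal FPKM sums (TPM scale), quantile normalisation, a replicate block, the compared groups alone, no trend, no fold threshold, limma treat against 2-fold, and leaving out each sample. Python 3.11.15, pandas 2.3.3, NumPy 2.4.6 and matplotlib 3.10.9 were used.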

Additional observations from a re-analysis of the deposited data

Results flagged for a closer look

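The effects of the inhibitors, both taken against the TCR cultures, were compared by a direct test of MEKi against PI3Kδi. Of the 10 transcripts, 2 differed at an adjusted p under 0.05 and more than 2-fold, against 3.09% of all genes. At that p alone 7 differed, against 28.9% of all genes. Fosb was lower with MEKi by a log2 difference of -1.86 (adjusted p = 1.23e-05 in limma, lower in 3 of 3 same-numbered cultures). Batf3 was higher with MEKi by 1.09 (adjusted p = 4.32e-05, higher in 3 of 3). This difference fell just under 2-fold without PI3Kδi replicate 2 or without PI3Kδi replicate 3. Groups of 3 cultures are too small for a check of single samples that lie apart.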

How the results depend on the processing

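Over 20 alternatives and 60 values (10 transcripts in 6 comparisons), 1172 of 1200 values kept their direction and their side of the thresholds, 12 fell under them, 2 passed them and 14 changed sign. With replicate number as a block, the numbers of transcripts called were 6 for TCR against unstimulated, 0 for PI3Kδi against TCR, 3 for MEKi against TCR, 2 for MEKi against PI3Kδi and 5 for each inhibitor against unstimulated, and no call at both thresholds changed. At an adjusted p under 0.05 alone, 37 of 1200 values changed side, 2 of them with the block (Fos for PI3Kδi and Jun for MEKi, each against TCR). Same-numbered cultures correlated at 0.00 to 0.15 for TCR and unstimulated and at -0.06 to 0.11 for PI3Kδi and unstimulated. There the correlations did not show pairing, which does not exclude it. The replicate block was fitted to all samples, these comparisons included. Leaving out single replicates gave 6, 0, 3, 1 to 3, 4 to 5 and 5 calls in the 6 comparisons (TCR, PI3Kδi against TCR, MEKi against TCR, MEKi against PI3Kδi, then PI3Kδi and MEKi against unstimulated).

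Without a fold threshold the counts, whose shares over all genes the report gives, were 6 for PI3Kδi against TCR, 5 for MEKi against TCR, 7 for MEKi against PI3Kδi, 8 for PI3Kδi and 9 for MEKi against unstimulated. With the 2-fold change built into the test (treat) they were 1 for MEKi against TCR, 0 for MEKi against PI3Kδi and 3 for each inhibitor against unstimulated, where the stricter test is the cause. The share of all genes passing treat was not computed, so these counts have nothing to be set against. Signs changed for the following values. For PI3Kδi against TCR, Fosb was 0.14 on the TPM scale, 0.00 without TCR replicate 1 and 0.12 without PI3Kδi replicate 1. For MEKi against TCR on the TPM scale, Jun was 0.09, Junb 0.15, Jund 0.11 and Batf 0.18, and after quantile normalisation Junb was 0.05 and Batf 0.05. Against unstimulated, PI3Kδi values on the TPM scale were -0.14 for Fosl2 and -0.19 for Batf, and Batf was -0.04 without PI3Kδi replicate 1. Leaving out single replicates put Jund between -0.18 and 0.02 for TCR against unstimulated (0.02 without TCR replicate 2) and between -0.00 and 0.35 for MEKi against PI3Kδi (-0.00 without PI3Kδi replicate 2). With a pseudocount of 1, Fosb in MEKi against unstimulated was 0.49, under 2-fold, and Fosl1 in PI3Kδi against unstimulated 0.96. On the TPM scale, Fosl1 in that comparison was 0.81 and Junb in MEKi against unstimulated 0.92. Unstimulated Fos and Fosb rest on few reads, which limits the precision of their ratios.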

Other observations

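Each of the 10 transcripts was set against the 10232 other genes with a mean of at least 1 FPKM in some group, by Pearson correlation of log2(FPKM + 0.1) over the 12 samples. These values are a description: most of the variation is between the 4 groups, the samples share libraries and scaling, and the best of many genes was taken. Fos ran closest to Sema7a (0.9928), Fosb to Cd274 (0.9897), which encodes PD-L1, and Fosl1 to Pim3 (0.9766). Jun was closest to S1pr2 (0.9876), Junb to Nfkbib (0.9837) and Jund to Drap1 (0.9657).

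Batf ran closest to Lfng (0.9752), Batf3 to Mpp1 (0.9866) and, as the third gene, to Cd8a (0.9786), and Atf3 to Zbtb46 (0.9977) with Irf8 as the third (0.9972). The lowest best match was that of Fosl2, with Plekha5 (0.9341). Among the 10 themselves, Fos and Fosb (0.96) and Jun and Junb (0.953) were most alike.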
